A study of Mus musculus with 5 samples.

Results

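Mouse epiblast stem cells that already received LIF were compared with and without an added pair of kinase inhibitors. The comparison rests on 2 of the 5 arrays of the series. The PCL culture received 1 uM PD0325901, 3 uM CHIR99021 and 1000 U/ml LIF, and the LIF culture received 1000 U/ml LIF alone. Both media hold LIF, so the difference between them is PD0325901 plus CHIR99021. The 3 other cultures received 1 uM PD0325901 (PD), 3 uM CHIR99021 (CH) or medium without supplements (untreated). All cultures were of line E3 (hybrid background) and grew in KSR medium over a feeder layer of inactivated CF1 fibroblasts. They had been kept with 5 ng/ml FGF2 until semiconfluence, when the medium was changed for 3 h, and FGF2 is not listed for any of the later media. Each condition is 1 culture of 1 line on 1 single-colour bead array, so the difference between PCL and LIF has no replicate check and no p-value of its own.

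PD0325901 inhibits MEK, the kinase that activates ERK downstream of FGF receptors. CHIR99021 inhibits GSK3, which otherwise marks beta-catenin for degradation, and beta-catenin then acts with TCF/LEF factors on Wnt target genes. LIF signals through its receptor and JAK kinases to STAT3. Epiblast stem cells represent the primed, post-implantation kind of pluripotency, which is maintained by FGF and Activin. The inhibitor pair together with LIF is known as a medium for naive mouse embryonic stem cells.

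Levels are given as log2 of the background-corrected intensity after quantile normalization over the 5 arrays, and a difference is PCL minus LIF on that scale. Detection means a detection p-value below 0.01. Of 16593 genes with a named probe, 7989 were detected on the PCL or the LIF array, 7238 of them on both. The number of detected probes was 10823 on the PCL array and 10981 on the LIF array, within the 10130 to 10981 of the whole series. The error of a difference is the standard error over beads carried to the log2 scale (± SE). Its median was 0.121, and it leaves out any spread between cultures. The differences of the 7989 genes had a median of 0.01 and an SD of 0.29, and 92.4% of genes differed by less than 0.5. The number of arrays limits the precision.

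A difference of at least 2-fold, which is 1 on the log2 scale, was found for 47 of the 7989 genes (0.588%), of which 23 were higher with PCL (0.288%) and 24 lower (0.3%). Of the 47, 43 were detected on both arrays and 4 on 1 array only. For those 4 the measured difference includes a level not above background, so a bound against the lowest detected level is the safer value. The bound reached 2-fold for Arc and fell short for Cdx2, Liph and Slc35d3, of which Liph and Slc35d3 were chosen for mention after their values were seen. With bounds in place of such differences the count was 44, with 22 higher and 22 lower. The verbs rose and fell are kept below for genes past the threshold of an additive model fitted with limma. It has terms for PD, CH and LIF over all 5 arrays and was asked for the sum of the PD and CH effects. That fit called 254 of 8353 genes (3.04%) at a Benjamini-Hochberg adjusted p under 0.05, 96 that rose (1.15%) and 158 that fell (1.89%). It has 1 residual degree of freedom, which is the departure of PCL from additivity, and its prior degrees of freedom came out infinite. Genes of like intensity therefore share 1 spread, and the p-values do not measure variation between cultures. Of the 47 genes, 22 higher ones rose and all 24 lower ones fell. The exception, Srrd, was chosen for mention after its values were seen. The fit includes the PCL and LIF arrays, so these calls are no separate evidence.

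**Figure D1:**
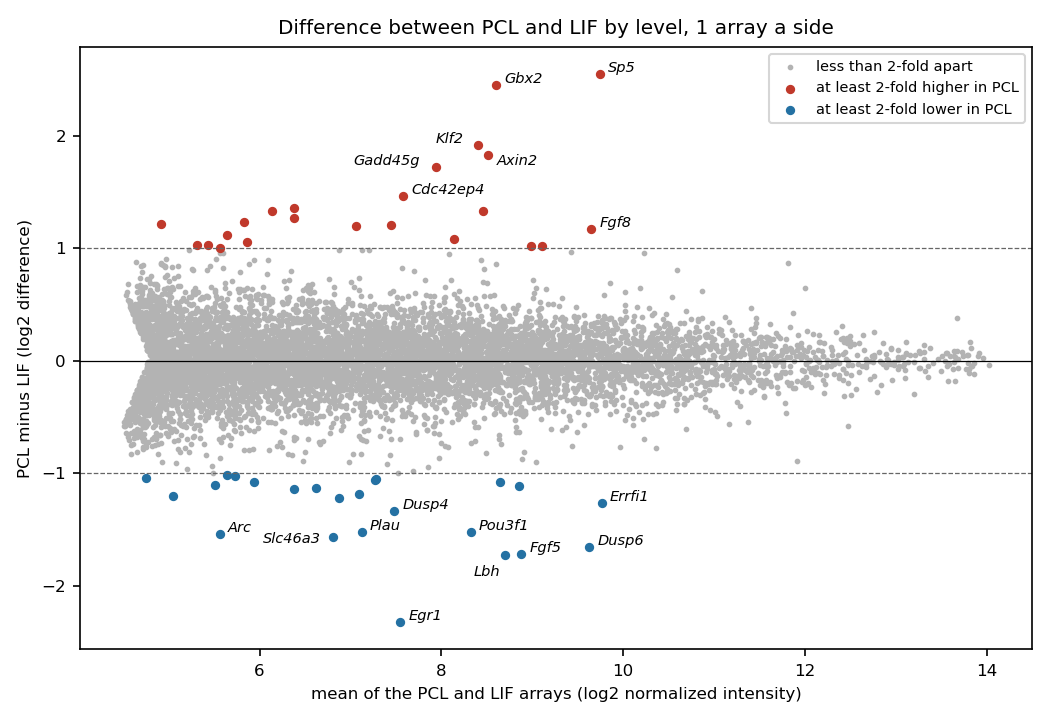
Difference between the PCL and LIF arrays (log2, vertical axis) against the mean level on both (log2 normalized intensity, horizontal axis) for the 7989 genes detected on either array, each point being 1 gene. The dashed lines mark 2-fold, and 23 genes lie at or above the upper line and 24 at or below the lower one.

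All 10 markers used for epiblast stem cells (Pou5f1, Sox2, Nanog, Fgf5, Otx2, Dnmt3b, Tdgf1, Utf1, Sall4 and Krt18) were detected on both arrays. Their summed normalized intensity was 25390 with PCL and 28030 with LIF, and the brightest was Dnmt3b (13.81 with PCL, against 13.86 with LIF). Differences of the 10 had a median of -0.28 and lay between -1.71 and 0.58. Of 12 feeder fibroblast markers, 7 were detected on each of the 2 arrays, with a summed intensity of 5009 with PCL and 4476 with LIF, and Col1a2, Col3a1, Pdgfrb, Postn and S100a4 were detected on neither. The brightest was Acta2 (11.71 with PCL, against 11.51 with LIF), whose other detected probes gave -0.20, -0.16 and 0.13. Differences of the 7 had a median of 0.04 and lay between -0.72 and 0.40. The part of feeder RNA in the differences below was not tested. In such bulk samples, fewer cells of a type and less RNA per cell cannot be told apart. Naive markers were dim. The 6 with a probe (Zfp42, Dppa3, Esrrb, Tbx3, Klf4 and Pecam1) summed to 402.5 with PCL and 347.1 with LIF, and their differences lay between 0.00 and 0.36.

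The highest genes with the inhibitor pair included targets of Wnt/beta-catenin signalling. Sp5 encodes a transcription factor and is a direct target of beta-catenin. It had a level of 11.01 with PCL, against 8.47 with LIF, and was 5.83-fold higher (difference 2.54 ± 0.10). Its level was 10.64 with CH, 7.38 with PD and 7.62 untreated, so that the 2 arrays with CHIR99021 stood above the 3 without it. Axin2, a scaffold protein that restrains beta-catenin as a feedback inhibitor, had 9.43 with PCL, against 7.60 with LIF (3.55-fold, 1.83 ± 0.08). It was at 9.09 with CH, 7.58 with PD and 7.91 untreated, which is the same split of the arrays. The caudal-type homeobox gene Cdx2 was detected with PCL (5.52) and not with LIF, and was at least 1.67-fold higher. Sp5, Axin2 and Cdx2 all rose in the additive fit, which includes the PCL and LIF arrays and so adds no separate evidence.

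The bases before the start sites of 3 of the higher genes are shown because TCF/LEF factors are known to bind motifs of the form CTTTGAT, and Sp5 and Axin2 had the largest differences among the beta-catenin targets. Cxcl12 is the other higher gene with a match. Each is 250 bases long, 5′ to 3′ on the gene's strand, from RefSeq on GRCm38.p6, with matches to CTTTGAT on either strand in capitals. Sp5 lies at chr2:70474673-70474922 (+), Cxcl12 at chr6:117168285-117168534 (+) and Axin2 at chr11:108920099-108920348 (+).
Sp5: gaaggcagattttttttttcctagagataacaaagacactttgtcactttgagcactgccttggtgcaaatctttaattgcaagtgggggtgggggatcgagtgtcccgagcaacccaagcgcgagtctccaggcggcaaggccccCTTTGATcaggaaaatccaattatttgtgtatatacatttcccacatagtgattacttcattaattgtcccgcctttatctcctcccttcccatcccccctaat
Cxcl12: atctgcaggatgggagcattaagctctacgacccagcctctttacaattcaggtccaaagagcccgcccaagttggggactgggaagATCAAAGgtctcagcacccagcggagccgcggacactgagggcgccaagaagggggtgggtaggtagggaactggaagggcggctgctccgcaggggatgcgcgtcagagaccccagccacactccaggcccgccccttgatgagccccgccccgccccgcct
Axin2: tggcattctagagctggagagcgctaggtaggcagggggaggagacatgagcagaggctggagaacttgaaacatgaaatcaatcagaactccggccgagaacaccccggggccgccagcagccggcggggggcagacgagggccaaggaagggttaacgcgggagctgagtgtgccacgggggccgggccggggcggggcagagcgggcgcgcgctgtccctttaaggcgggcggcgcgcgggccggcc

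In Sp5 the match begins 104 bases before the start, and in Cxcl12 it begins 163 bases before the start and reads on the opposite strand. Axin2 has no match in this window, which says only that these letters are not there. Of the 23 genes at least 2-fold higher, 17 had an entry in the RefSeq table and 2 of these held the motif, namely Sp5 and Cxcl12. Of the 24 lower genes, 14 had an entry and 0 held it. Among all 32851 windows of the same length, 3.21% held it. That share counts windows, while a gene above was counted if any of its windows held the motif.

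The list of beta-catenin targets had 22 genes with a probe, of which 13 were detected on either array, and 2 of those (Sp5 and Axin2) were past 2-fold upward and 0 downward, while Cdx2 joined them by its measured difference but not by its bound. Their median difference was 0.42, or 0.37 with genes detected on 1 array at their bound, against 0.01 over all genes, and in the fit 3 of 14 rose and 1 fell. Across all genes fitted, 1.15% rose and 1.89% fell. The values of the other members were spread. The receptor gene Tnfrsf19 differed by 0.57 ± 0.11 and did not pass. The antagonist gene Dkk1 was above background on the PCL array but not on the LIF array, had a bound of 1.34-fold and did not pass. The TCF/LEF factor Lef1 was at 4.81 with PCL, against 5.63 with LIF (-0.81 ± 0.18), and did not pass either. The ligand gene Wnt8a fell (-0.59 ± 0.10), and it differed from untreated cells by -0.63 with PD and 0.42 with CH.

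Among Wnt ligands, receptors and mediators 1 of 23 genes fitted rose and 2 fell, against 1.15% and 1.89% of all genes fitted. Of 29 with a probe, 22 were detected on either array, and their median difference was 0.06. The receptor gene Fzd10 rose, with 8.04 with PCL, against 6.84 with LIF (2.31-fold, 1.21 ± 0.12). Both single inhibitors had it above the untreated level too, at 7.30 with PD and 7.20 with CH, against 6.49 untreated. The other detected probes of Fzd10 gave 1.42 and 0.61. The receptor gene Fzd7 fell (-0.81 ± 0.11), as did the noncanonical ligand gene Wnt5a (-0.58 ± 0.10). Beta-catenin itself (Ctnnb1, -0.12), Gsk3b (0.39) and the repressor Tcf7l1 (0.06) did not pass.

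The lowest genes with the inhibitor pair included known targets of ERK signalling. Egr1, an immediate early transcription factor, had 6.38 with PCL, against 8.70 with LIF, and was 4.99-fold lower (-2.32 ± 0.12). It was at 6.32 with PD, 9.22 with CH and 10.01 untreated, so both arrays with PD0325901 were low and close together. Egr1 was itself 1.30 lower with LIF than untreated on the log2 scale, and PD differed from untreated by -3.68. Arc, another immediate early gene, was not detected with PCL and had 6.33 with LIF, which makes it at least 2.88-fold lower. It was detected with PD (5.75) and CH (5.80) and had 6.29 untreated.

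Feedback inhibitors of the ERK pathway were lower as a group. The MAP kinase phosphatase Dusp6, which acts on ERK, had 8.80 with PCL, against 10.45 with LIF (3.15-fold lower, -1.66 ± 0.08). The related phosphatase Dusp4 had 6.81 with PCL, against 8.14 with LIF (-1.34 ± 0.10). Spry4, a Sprouty protein that dampens receptor tyrosine kinase signalling, had 5.71 with PCL, against 6.50 with LIF (-0.79 ± 0.19). These 3 and Phlda1 (-0.54) fell in the fit. Of 12 feedback inhibitors with a probe, 10 were detected on either array, all 10 had a negative difference, 2 were at least 2-fold lower, and the median was -0.51, or -0.37 with Spry1 at its bound. In the fit 4 of 11 fell and 0 rose, against 1.89% and 1.15% of all genes fitted. Among all 7989 genes, 3912 differences were below 0 and 4064 above. Il17rd (-0.47 ± 0.17) and Spred1 (-0.28 ± 0.13) did not pass, and neither did Spry1, whose bound was 1.04-fold because the PCL array did not detect it. The other detected probes of Dusp6 gave -1.19 and -0.68.

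Errfi1, which encodes a feedback inhibitor of the EGF receptor, was not in that list and was among the lowest as well. It had 9.13 with PCL, against 10.40 with LIF (2.41-fold lower, -1.27 ± 0.08), with 9.40 on the PD array, 10.41 on the CH array and 10.58 untreated. Only the 2 arrays with PD0325901 lay below 10.

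Of the ETS factors and other ERK targets, 7 of 15 fell and 0 rose, against 1.89% and 1.15% of all genes fitted. Etv1 had 6.06 with PCL, against 7.19 with LIF (-1.13 ± 0.10), and the related Etv5 (-0.73 ± 0.13) and Etv4 (-0.47 ± 0.10) were lower by less. A second detected probe of Etv1 gave -0.68. The G-protein regulator Rgs16 (-1.06 ± 0.14), the receptor tyrosine kinase Epha2 (-0.83 ± 0.10), the EGF-family ligand Hbegf (-0.79 ± 0.14) and Ier3 (-0.57 ± 0.10) fell as well. The list median over the 15 detected of 20 with a probe was -0.13, and Ccnd1 (0.21), Ets2 (0.29) and Fosl1 (0.07) were among the members that did not pass. Of the immediate early genes, Egr1, Arc and Junb (-0.43) fell, Jun rose (0.82 ± 0.14), and 10 of 14 did not pass, including Fos (-0.46 ± 0.14). Myc did not pass either, and its bound was 1.03-fold, with no detection on the PCL array.

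**Figure D2:**
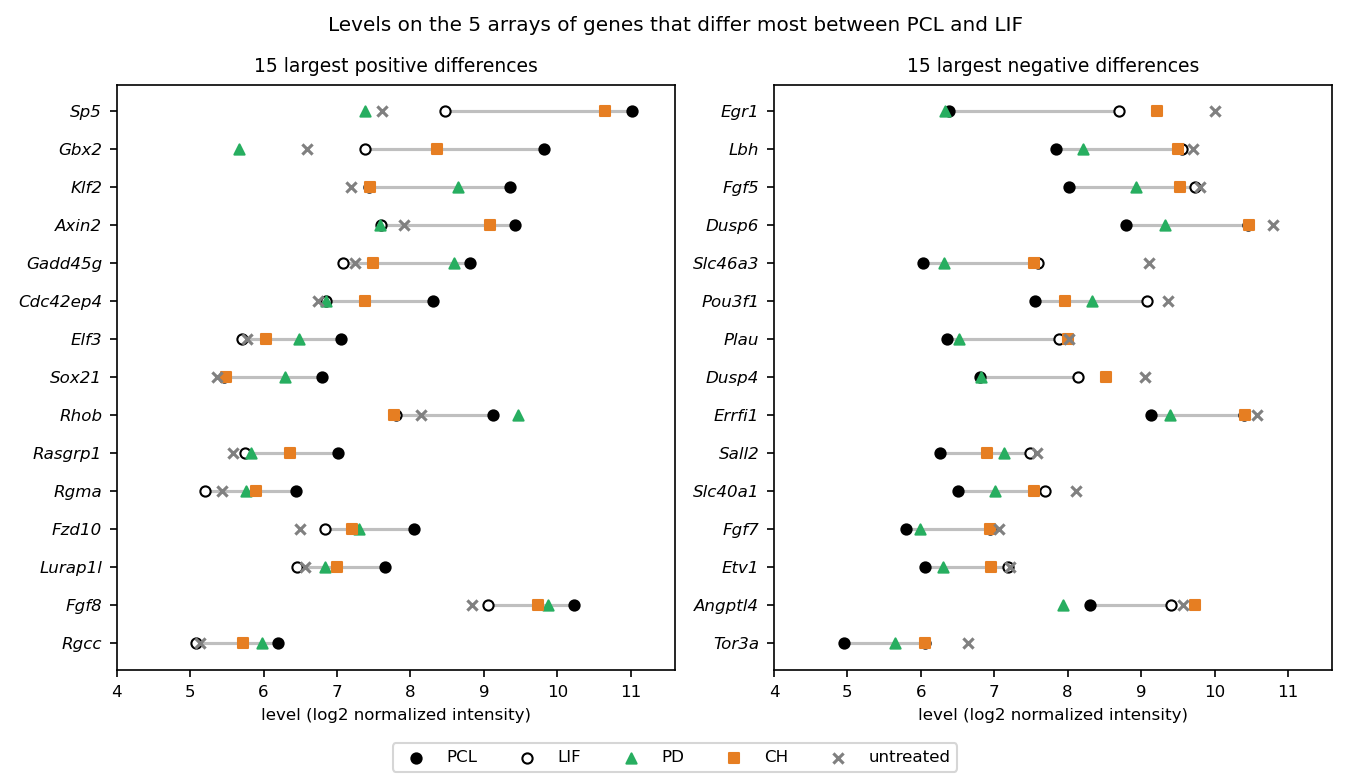
Levels (log2 normalized intensity, horizontal axis) on each of the 5 arrays for the 15 genes with the largest positive (left) and the 15 with the largest negative (right) PCL minus LIF difference among genes detected on both. Grey bars join the PCL and LIF arrays, and Sp5 runs over 2.54 and Egr1 over -2.32. For Sp5 and Axin2 the CH array lies near PCL, and for Klf2, Gadd45g, Egr1, Dusp6 and Plau the PD array does.

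Among genes linked to naive pluripotency, Gbx2 and Klf2 were far above the others. The homeobox gene Gbx2 had 9.82 with PCL, against 7.37 with LIF (5.45-fold, 2.45 ± 0.12). It had 8.37 with CH, 5.67 with PD and 6.60 untreated, so it was highest where all agents were combined and lowest with PD alone. The zinc-finger factor Klf2 had 9.35 with PCL, against 7.44 with LIF (3.77-fold, 1.91 ± 0.09). It had 8.65 with PD, 7.45 with CH and 7.19 untreated, and the 2 arrays with PD0325901 stood above the 3 others. Both genes rose, and they were the 2 of 12 members that passed, against 3.04% of all genes fitted. The median of the 12 detected members was 0.13, with Klf4 at 0.36 ± 0.16, Esrrb at 0.26 ± 0.09, Zfp42 at 0.32 ± 0.22 and Klf5 at -0.23 ± 0.12.

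Primed epiblast genes were mostly lower. The ligand gene Fgf5, a marker of the post-implantation epiblast, had 8.02 with PCL, against 9.73 with LIF (3.28-fold lower, -1.71 ± 0.08). It had 8.93 with PD, 9.53 with CH and 9.80 untreated, so PCL was the lowest of the 5 arrays. The POU factor Pou3f1 (Oct6) had 7.56 with PCL, against 9.08 with LIF (-1.52 ± 0.12), and was lower with each inhibitor alone, at 8.33 with PD and 7.96 with CH, against 9.37 untreated. The homeobox factor Otx2 had 9.97 with PCL, against 10.75 with LIF (-0.78 ± 0.07). In the fit 6 of 15 fell, namely Fgf5, Pou3f1, Otx2, Fgf15 (-0.89), Lefty2 (-0.63) and Wnt8a, while Fgf8 (1.17 ± 0.07) and Lefty1 (0.87 ± 0.08) rose. The median of the 15 was -0.30, with 12 below 0 and 3 above. Among all 7989 genes, 3912 were below 0 and 4064 above. Across all genes fitted, 1.89% fell and 1.15% rose.

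The FGF ligands of this group thus went opposite ways. Fgf8 had 10.23 with PCL, against 9.06 with LIF, and both single inhibitors had it above the untreated level (9.87 with PD and 9.74 with CH, against 8.84 untreated). A further ligand gene, Fgf7, had 5.80 with PCL, against 6.95 with LIF (-1.14 ± 0.14), and fell in the fit. The receptor genes Fgfr1 (0.22) and Fgfrl1 (0.19) did not pass, and neither did Fgfr2, which was not detected with PCL.

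Core pluripotency factors shifted by less than 2-fold. Pou5f1 (Oct4) had 12.06 with PCL, against 12.35 with LIF (-0.29 ± 0.10), and did not pass. Sox2 (-0.65 ± 0.14), Utf1 (-0.77 ± 0.09) and Dppa4 (-0.62 ± 0.10) fell. Nanog rose, with 10.08 with PCL, against 9.50 with LIF (0.58 ± 0.07), and was at 10.10 with PD, 9.98 with CH and 9.20 untreated. The 11 detected members had a median of -0.27, and 1 rose and 3 fell, against 1.15% and 1.89% of all genes fitted.

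Primitive streak and endoderm genes went both ways. The homeobox genes Gsc (8.68 with PCL, against 7.60 with LIF, 1.08 ± 0.07) and Mixl1 (6.05 with PCL, against 5.09 with LIF, 0.96 ± 0.16) rose. The endoderm factor Foxa2 had 5.01 with PCL, against 5.95 with LIF (-0.94 ± 0.18), and fell. Eomes had 7.01 with PCL and 6.67 with LIF (0.35 ± 0.13) and did not pass, and it differed from untreated by -0.99 with PD and 1.38 with CH. In this list 3 of 13 rose and 1 fell, with a median of 0.13. Across all genes fitted, 1.15% rose and 1.89% fell.

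Regulators of Nodal and Activin moved singly. Fst, which encodes the Activin-binding protein follistatin, had 9.50 with PCL, against 8.47 with LIF (1.02 ± 0.10). It had 7.67 with PD and 10.66 with CH, against 9.34 untreated, so the single inhibitors moved it in opposite directions. The Nodal antagonist Lefty1 had 12.25 with PCL, against 11.38 with LIF, while the related Lefty2 had 8.51 with PCL, against 9.14 with LIF. In this list 3 of 16 rose (Fst, Inhbb and Lefty1), 2 fell (Lefty2 and Tgif1), and Nodal itself did not pass (0.08 ± 0.13). The shares over all genes fitted were 1.15% and 1.89%. Of 12 BMP pathway and Id genes, only the BMP antagonist Chrd passed, and it fell (-0.31 ± 0.09). It differed from untreated by -1.12 with PD and -0.55 with CH.

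LIF was present in both media, and its targets stayed within 2-fold except Gbx2. Socs3, the feedback inhibitor of JAK/STAT signalling, had 8.45 with PCL, against 8.92 with LIF (-0.47 ± 0.07), and fell in the fit. Both were far above the 3 arrays without LIF, which had 6.11 with PD, 6.89 with CH and 6.97 untreated. Icam1 (-0.62 ± 0.12), Socs2 (-0.47 ± 0.08) and Junb fell too, and Stat3 (0.16 ± 0.12), Pim3 (-0.34 ± 0.08) and Klf5 did not pass. The other detected probes of Stat3 gave -0.08 and -0.07. The median of the 17 LIF targets was -0.06, and 1 rose and 4 fell, against 1.15% and 1.89% of all genes fitted. Of 8 receptor and JAK components 0 passed, and their median was 0.30 with 7 of 8 above 0, against 4064 of all 7989 genes. The largest was the adaptor Gab1 (0.50 ± 0.09). Some signs depended on the probe, as other detected probes gave -0.30 for Tyk2, 0.29 and -0.11 for Ptpn11 and 0.09 for Jak2. The interferon response list had a median of -0.38 over 10 members, with Gbp2 fallen (-0.51 ± 0.09) and Bst2 risen (0.59 ± 0.27). The call for Bst2 also draws on the single inhibitors, which differed from untreated by 0.79 with PD and 1.62 with CH. Its level was lowest untreated (5.59), and LIF alone differed from that by 0.93.

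Genes of growth arrest and stress included a further strong difference. Gadd45g had 8.81 with PCL, against 7.08 with LIF (3.30-fold, 1.72 ± 0.09), with 8.60 on the PD array, 7.48 on the CH array and 7.24 untreated. A second detected probe gave 0.84. Gadd45b (0.70 ± 0.12), Ddit4 (0.62 ± 0.08), the cell cycle inhibitor Cdkn1a (0.61 ± 0.06) and Hspb1 (0.56 ± 0.15) rose, while Gadd45a (-0.76 ± 0.15), Ndrg1 (-0.94 ± 0.12) and the pro-apoptotic Bcl2l11 (-0.58 ± 0.06) fell. In the fit 5 of 20 members rose, Gadd45g included, and 3 fell, against 1.15% and 1.89% of all genes fitted. The list median of 0.06 does not show these opposite movements. For Bcl2l11 the other detected probes gave only -0.04 and -0.15. Of 16 cyclins and CDK inhibitors, Cdkn1a rose, Cdkn2b fell (-0.69 ± 0.13) and 14 did not pass, where 3.04% of all genes fitted passed.

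The 15 highest genes also included genes outside the lists and Sox21 of the neural list. Cdc42ep4, an effector of the GTPase Cdc42, had 8.31 with PCL, against 6.85 with LIF (2.75-fold, 1.46 ± 0.10), with 7.39 on the CH array and 6.86 on the PD array, against 6.74 untreated. The epithelial ETS factor Elf3 (1.36 ± 0.13), the neural SoxB factor Sox21 (1.33 ± 0.12) and the small GTPase Rhob (1.33 ± 0.12) were higher. So were the Ras exchange factor Rasgrp1 (1.26 ± 0.11), the BMP co-receptor Rgma (1.24 ± 0.19), Lurap1l (1.20 ± 0.15) and the cell cycle regulator Rgcc (1.12 ± 0.13). All of these rose in the fit. The other detected probes of Elf3 gave 0.79 and 0.43. The chemokine gene Cxcl12 had 9.62 with PCL, against 8.60 with LIF (1.02 ± 0.10), with 9.64 on the PD array and 9.12 on the CH array, against 8.65 untreated. The 2 arrays with PD0325901 were the highest and nearly equal. Other detected probes of Cxcl12 gave 0.59 and 0.45.

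On the lower side, Lbh, a transcription cofactor, had 7.84 with PCL, against 9.56 with LIF (3.31-fold lower, -1.73 ± 0.10). It had 8.20 on the PD array, 9.50 on the CH array and 9.71 untreated. Plau, the secreted protease urokinase, had 6.36 with PCL, against 7.88 with LIF (2.87-fold lower, -1.52 ± 0.10), with 6.52 on the PD array, against 8.02 untreated. In both genes the arrays with PD0325901 stood below the 3 others. The lysosomal transporter Slc46a3 had 6.03 with PCL, against 7.59 with LIF (-1.56 ± 0.11), and it was highest untreated (9.10). The zinc-finger factor Sall2 (-1.22 ± 0.11), the iron exporter Slc40a1 (-1.19 ± 0.10), the lipase inhibitor Angptl4 (-1.11 ± 0.09) and the torsin Tor3a (-1.10 ± 0.11) fell as well. A second detected probe of Tor3a gave -0.56.

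**Figure D3:**
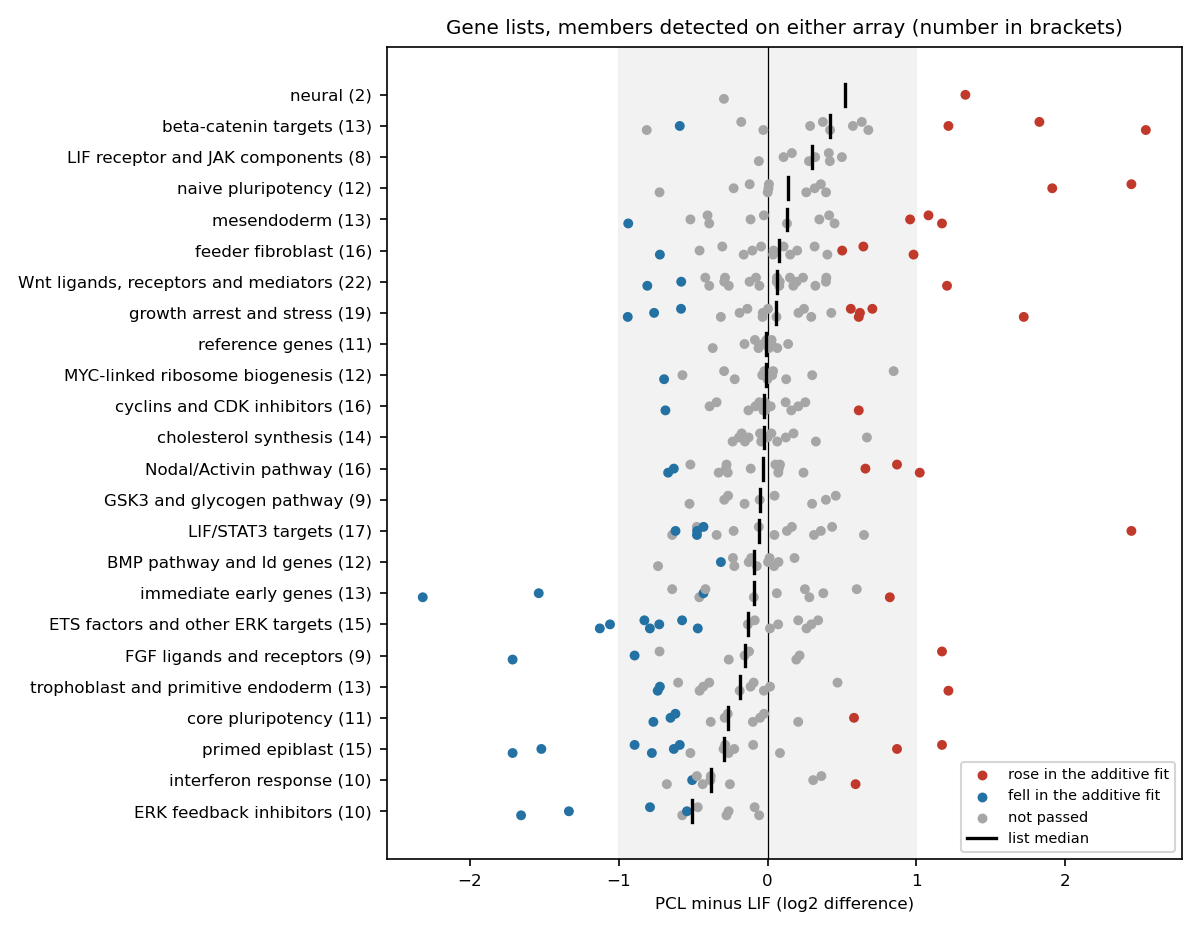
PCL minus LIF differences (log2, horizontal axis) of the members of 24 gene lists that were detected on either array, with the list median as a black bar and the number of members in brackets. Red and blue points rose and fell in the additive fit, and the medians run from -0.51 for ERK feedback inhibitors to 0.52 for the neural list, which has 2 detected members.

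The remaining lists differed in how many genes passed, where 1.15% of all genes fitted rose and 1.89% fell. Reference genes had a median of -0.01 with a range from -0.37 to 0.14, and 0 of 11 passed. Cholesterol synthesis had a median of -0.02 with 0 of 14 passing, and the glycogen pathway -0.05 with 0 of 9. Ribosome biogenesis had a median of -0.01, and only Pes1 of 12 passed, which fell. Feeder fibroblast genes had a median of 0.07, and 3 of 16 rose, 1 fell and 12 did not pass. Timp3 (0.98 ± 0.09), Ccn2 (0.64 ± 0.05) and Lox (0.50 ± 0.10) rose and Pdgfra (-0.72 ± 0.14) fell. Trophoblast and primitive endoderm genes had a median of -0.19, with Cdx2 risen and Dab2 (-0.74 ± 0.13) and Pdgfra fallen of 13. Genes of the feeder list and of this list passed more often than the 3.04% of all genes fitted. The neural list rests on Sox21 and Nes (-0.29), and a second detected probe of Nes gave 0.50.

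The arrays of PD, CH and untreated cells are not part of the PCL minus LIF difference and show the same inhibitors singly, without LIF. The sum of the 2 single differences against untreated had the same sign as PCL minus LIF in 44 of the 47 genes, 21 of 23 higher and 23 of 24 lower. Over all 7989 genes the share was 55.6%. Across the 6821 genes detected on all 5 arrays, the correlation of PCL minus LIF with that sum was 0.363, with PD minus untreated 0.276 and with CH minus untreated 0.335. Genes are not independent replicates, the single differences share the untreated array, and all arrays were normalized together, so these are descriptions. The opposite signs were found in Fst, Hmgn5 and Srrd, of which Hmgn5 was chosen for mention after its values were seen.

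**Figure D4:**
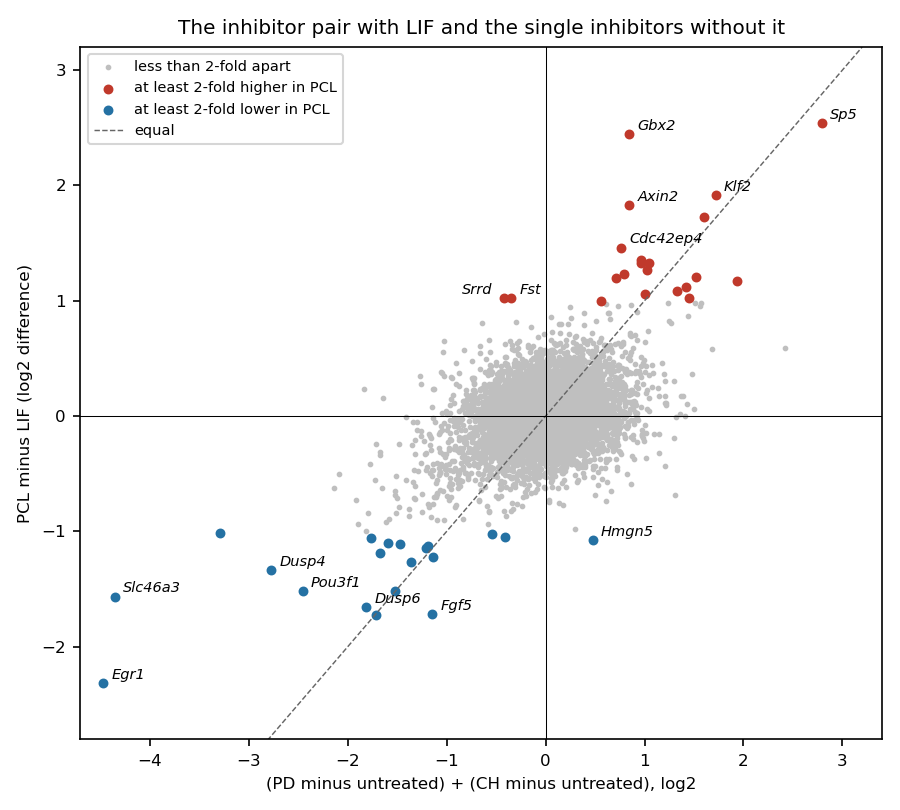
PCL minus LIF (log2, vertical axis) against the sum of PD minus untreated and CH minus untreated (log2, horizontal axis) for the 6821 genes detected on all 5 arrays, with genes at least 2-fold apart in colour and equality as a dashed line. Gbx2 lies well above equality (2.45 against 0.84) and Slc46a3 and Egr1 lie nearer to 0 on the vertical axis than on the horizontal one.

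The single inhibitors divided the 47 genes when a difference of at least 0.5 in the same direction was counted. This split is a description and was not made over all 7989 genes. Some genes lay within bead error of the limit. Arc (-0.49 ± 0.15 with CH) and Cxcl12 (0.46 ± 0.12 with CH) were counted under PD only. Sall2 (-0.46 ± 0.11 with PD) was counted under CH only. Of the 24 lower genes, 11 were lower with PD only, 2 with CH only, 10 with both and 1 with neither. The genes lower with PD only included Dusp6, Lbh, Fgf5, Plau, Errfi1, Etv1 and Rgs16, and those lower with both included Pou3f1, Egr1 and Dusp4. Dusp4, Egr1, Pou3f1 and Slc46a3 were highest on the untreated array, which both single differences share. So were Dusp6, Lbh, Fgf5, Plau, Errfi1 and Etv1 among the genes lower with PD only. Slc46a3 differed from untreated by -1.51 with LIF as well. Of the 23 higher genes, 8 were higher with PD only, 7 with CH only, 3 with both and 5 with neither. Those with PD only included Klf2, Gadd45g, Elf3, Sox21, Rhob and Cxcl12, those with CH only were Sp5, Gbx2, Axin2, Cdc42ep4, Rasgrp1, Gsc and Fst, and those with both were Fzd10, Fgf8 and Rgcc.

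**Figure D5:**
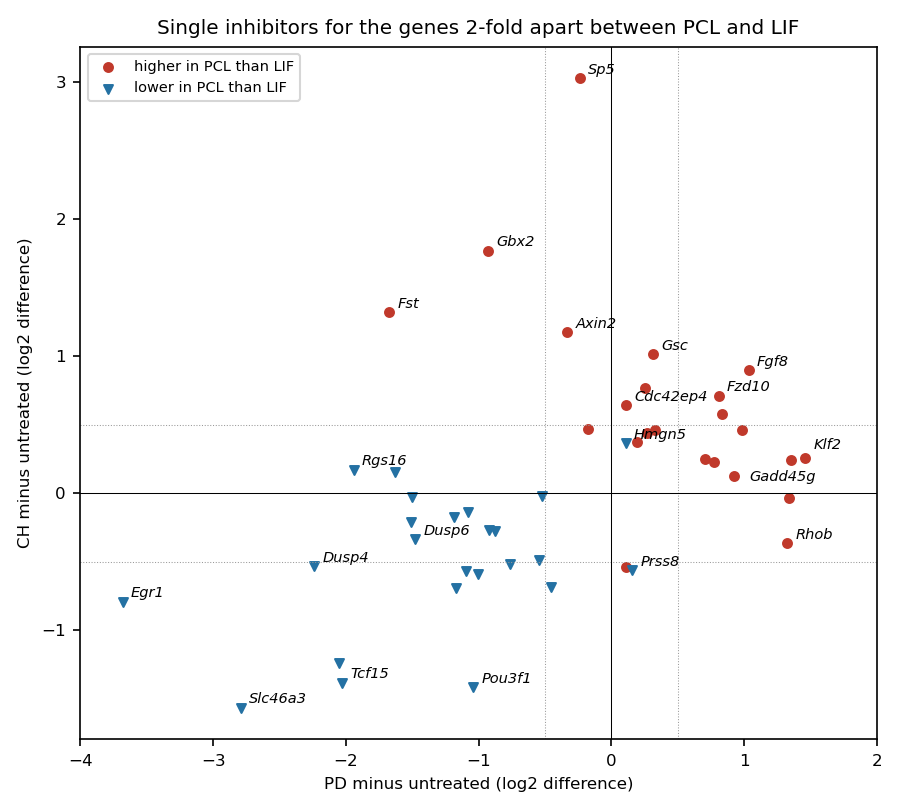
PD minus untreated (log2, horizontal axis) against CH minus untreated (log2, vertical axis) for the 47 genes at least 2-fold apart between PCL and LIF, as circles where higher and triangles where lower with PCL. Dotted lines mark 0.5, and most lower genes lie to the left of zero while higher genes spread along both axes. Labels outside the lists and the ranked genes (Hmgn5, Prss8 and Tcf15) were chosen after their values were seen.

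For some genes the PCL minus LIF difference was larger in size than the single inhibitor differences summed. Gbx2 differed by 2.45 between PCL and LIF, against a sum of 0.84 (1.77 with CH and -0.93 with PD). Axin2 differed by 1.83, against a sum of 0.85, and Cdc42ep4 by 1.46, against 0.76. Fgf5 differed by -1.71, against -1.15. For others it was smaller in size, as in Egr1 (-2.32, against -4.47), Dusp4 (-1.34, against -2.77) and Fgf8 (1.17, against 1.93). Yet Egr1 had nearly the same level with PCL (6.38) as with PD (6.32), as did Dusp4 (6.81 and 6.82). LIF alone differed from untreated by -1.30 for Egr1 and -0.91 for Dusp4, and the untreated array enters both single differences. Lbh (-1.73, against -1.72), Plau (-1.52 both ways) and Dusp6 (-1.66, against -1.81) were nearly equal. Over the 6821 genes the median size of this departure was 0.262. The additive fit uses up its only degree of freedom on the departure, so it was not tested.

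Genes near the 2-fold limit show how little separates the 2 sides. Just inside it were Efnb1 (1.00), Lor (-1.02), Cxcl12 (1.02), Dapk1 (-1.02) and Fst (1.02), and just outside Slc7a7 (-0.996), Grm6 (-0.99), Irx3 (0.98), Timp3 (0.98) and Spink1 (-0.98). The bead-level errors of these 10 differences lay between 0.09 and 0.16, so they cannot be placed on either side with certainty.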

How the data were processed

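Total RNA of 5 cultures was measured on Illumina bead arrays. Per the labels' protocols, 400 ng of RNA was amplified and labelled with Cy-3. The deposited scanner tables hold linear signal intensity, a bead standard error on the same signal scale and a detection p-value for 25697 probes. The submitters' processing notes name BeadStudio, without its role. The authors' table of processed intensity values served as an alternative, and its scale is linear with a normalization not given in the sources used here. Intensities were corrected with normexp from the detection p-values (offset 16), quantile-normalized and put on log2 with limma 3.58.1 in R 4.3.3. The offset compresses differences of dim genes. A single gene symbol was found for 23978 probes, several for 0 and none for 1719. Each gene was taken from its probe with the highest mean. A gene detected on 1 array only gets a bound against the lowest detected level of the other array. Counts, list medians and the fit use its measured difference unless a bound is named. The lists (24, with 277 genes detected on either array among 373 with a probe) and the comparison were chosen with earlier results of these data known. Named genes are list members, the 15 highest and lowest, bounds past 2-fold and the 5 nearest the limit on each side. Alternatives varied scaling, background, offset, filter, probe choice and the trend.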

Additional observations from a re-analysis of the deposited data

Results flagged for a closer look

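In 3 genes the inhibitor pair added to LIF and the single inhibitors without LIF pointed in opposite directions, and this difference was not tested. Fst had a PCL minus LIF difference of 1.02 and a sum of single inhibitor differences of -0.35, which are 1.37 apart. The high-mobility-group gene Hmgn5 had 8.11 with PCL, against 9.18 with LIF (-1.08), while PD (0.11) and CH (0.37) were above untreated, so that the values are -1.55 apart. Srrd had 5.94 with PCL, against 4.92 with LIF (1.02), and a sum of -0.42, so that they are 1.45 apart. Hmgn5 and Srrd were chosen for mention after their values were seen.

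Among probes without a gene name, which were not part of the comparison by gene, 2 of 662 detected on either array were at least 2-fold higher with PCL and 0 lower. Probe ILMN_2681913 had 8.48 with PCL, against 7.30 with LIF (1.18), and 8.42 with PD and 8.38 with CH, against 7.68 untreated. Probe ILMN_1255511 had 9.22 with PCL, against 8.22 with LIF (1.00), and 8.12 untreated.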

How the results depend on the processing

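The 47 genes kept their direction under all scalings, background settings and probe choices tried (282 values, of which 0 turned and 11 were under 0.5 in size, all without background correction except Slc35d3 with an offset of 50 as well). The count depended on how dim values were treated. Without background correction 15 genes were at least 2-fold apart (8 higher and 7 lower), and with an offset of 50 there were 19 (9 and 10). Both alternatives compress dim signals, and all of these genes were among the 47. The authors' values gave 106 (49 and 57), with 45 of the 47 shared, and the cause was not tested. Under the 6 other alternatives the count lay between 42 and 53. For the additive fit limma passed 0 genes when given the authors' values (721 had an unadjusted p under 0.05), against 254 on the scanner values and 183 to 259 under the 5 other alternatives. The correlation with the summed single inhibitors stayed between 0.332 and 0.392. List medians of at least 0.2 in size, an alternative chosen after seeing the data, kept their sign, and that of ERK feedback inhibitors was -0.22 and that of beta-catenin targets 0.14 without background correction. No paired analysis was possible because each condition has 1 array. Signal over background limits what can be said of dim genes.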
